A study of Homo sapiens with 8 samples.

Results

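RNA pulled down with an antibody against ribosomal protein S6 (RPS6) was compared with the input RNA of the same lysate in Hep3B cells, a hepatocellular carcinoma (HCC) line. The pair consisted of 1 RNA immunoprecipitation (RIP) library and 1 input library. Genes were kept when the mean of the 2 deposited counts was at least 10, which left 18533 of the 57756 genes listed. The study prepared such pairs in 4 cancer cell lines, with HCT116 (colorectal), DU145 (prostate), and SW1990 (pancreatic) beside Hep3B, to find snoRNAs that act in ribosome biogenesis. No treatment, genetic change, or time point was given for any of them. The sample titles and the methods place the pair in Hep3B cells, while the cell line field and the source name of the same labels give Huh7, another HCC line. The name Hep3B is used here. There was no second pair of the line and no control antibody, so the values describe 2 libraries and no test was made between them.

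RPS6 is a protein of the small ribosomal subunit, and an antibody against it can bring down ribosomes together with the mRNAs they carry. Most cytoplasmic mRNAs are found on ribosomes, whereas RNAs held in the nucleus are not, and mRNAs of the mitochondrial genome are read by the separate ribosomes of that organelle. In liver cancer cells, much of the translated mRNA encodes secreted plasma proteins.

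Levels are given as FPKM, which counts fragments per kilobase of a transcript for every 1000000 that were mapped. The difference between the libraries is given as the log2 ratio, log2 of (RIP count + 1)/(input count + 1), which is positive where the RIP library was higher. A gene was called higher or lower in the RIP past 2-fold, a log2 ratio of 1 or -1. Most deposited counts were multiples of a step that stands for 1 fragment, so the input held 35796159 fragments and the RIP library 34630349. A floor of 3 fragments therefore lay at 0.0838 and 0.0866 fragments per 1000000. The 95% intervals below are exact Clopper-Pearson intervals on these fragments and cover counting error only. They hold no replicate error, and fragments are not independent molecules.

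The markers of liver cells were high in both libraries. ALB, which encodes albumin, had 5030.1 FPKM in the input and 9582 FPKM in the RIP. APOB, the core protein of very low density lipoprotein, had 306 and 1180.2 FPKM, and AFP, the fetal counterpart of albumin, had 291 and 231 FPKM. In the 6 libraries of the other lines, these 3 genes reached at most 2.54 FPKM. Colon and pancreas markers were at or near 0, while some markers of other tissues were measured. Among 5 colon markers the highest level was 1.05 FPKM (CDX2 in the RIP), and among 5 pancreas markers it was 0.403 FPKM (CEL in the RIP). Of the prostate markers, TMPRSS2 had 537 and 1052 counts, and KLK2 and KLK3 stayed below 0.06 FPKM. The leukocyte markers LYZ (22.7 and 11.5 FPKM), CD14 (1.99 and 9.87 FPKM), and CD68 (3.04 and 3.27 FPKM) were present, whereas PTPRC and CD3E were listed at 0. LUM, a stromal marker, had 21.9 and 17.6 FPKM, with COL1A1 at 0.610 and 2.94 FPKM, DCN at 0.0812 and 1.36 FPKM, and CDH5 at 0. In RNA from many cells, fewer cells of a type and less RNA per cell cannot be told apart, and the part of these markers in the results was not tested. The tables of Hep3B with HCT116 and of DU145 with SW1990 were normalized separately, so levels set across them are approximate. The RPS6 mRNA itself had 681 and 247 FPKM, but the antibody binds the protein, and this value is no check of the pull-down.

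Of the 18533 genes, 4671 were at least 2-fold higher in the RIP (25.2% of all genes tested) and 5131 were at least 2-fold lower (27.7%). The remaining 8731 lay between. The median log2 ratio was -0.06 over all of them and 0.08 over the 13554 that RefSeq lists as protein coding. How many genes were called lower depended on the deposited unit and the pseudocount together. On log2(FPKM + 1), 3889 genes were higher and 2265 lower, and on log2(FPKM + 0.1) the numbers were 5173 and 3555. On the first of these scales the median of all genes moved to 0.17. The counts that 1 FPKM of a gene stood for were not the same in both libraries, and the gap of the log2 FPKM ratio to the log2 count ratio had a median of 0.24 with 5% and 95% quantiles of -0.41 and 1.04. In the other lines the median gap was between 0.11 and 0.15. APOB shows its size, since the RIP was 1.87-fold above the input by counts and its FPKM went from 306 to 1180.2. Ratios below are therefore given by counts, and the FPKM values stand beside them. At the minimum itself, 314 genes with a mean of 9 to 10 counts had a median log2 ratio of -1.01, and 289 genes with a mean of 10 to 11 counts had a median of -0.78. Of the kept genes, 12831 (69.2%) share their locus with at least 1 other gene, so that fragments could be split between overlapping genes.

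**Figure D1:**
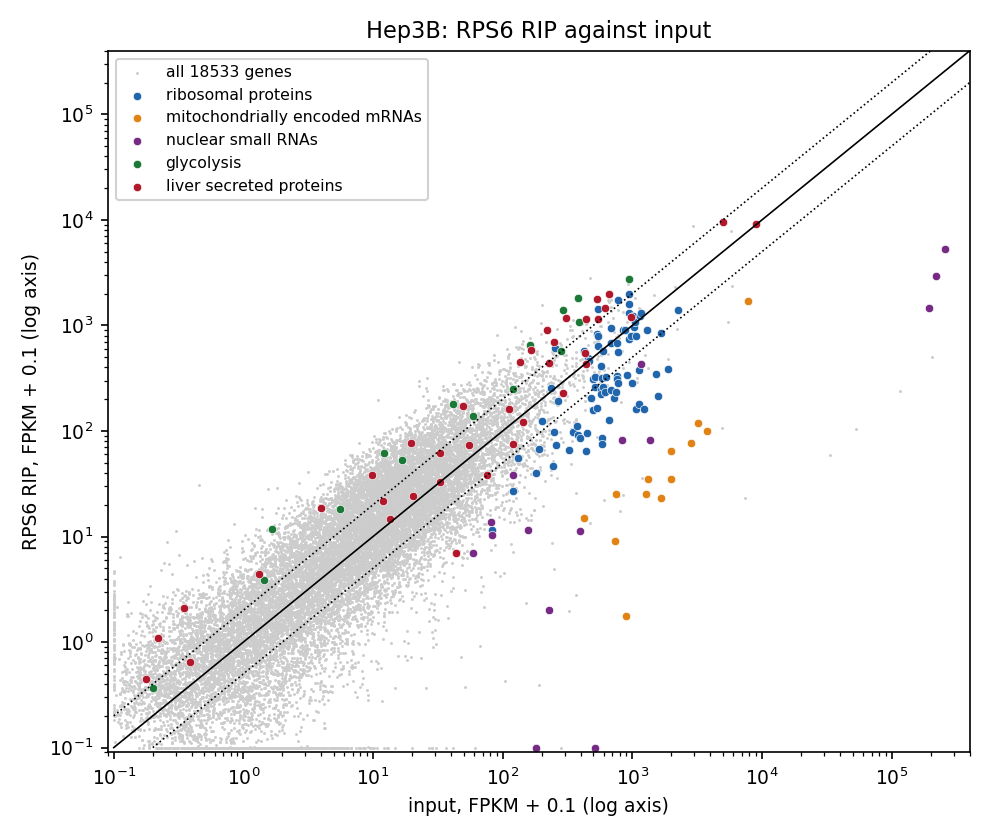
FPKM in the RPS6 RIP library (y) against the input library (x) of Hep3B cells, each plus 0.1 on log axes, for 18533 genes (grey) and 5 gene lists (colours). The solid line marks equal values and the dotted lines 2-fold. The 13 mitochondrially encoded mRNAs and the nuclear small RNAs lie far below the line, most ribosomal protein mRNAs lie below it, and glycolysis mRNAs lie above it.

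The make-up of the RIP library differed from that of the input mainly in its small and noncoding RNAs. Just 5 genes, RN7SK, RPPH1, RMRP, RN7SL1, and RN7SL2, held 12.4% of the input counts and 0.126% of the RIP counts. Protein-coding genes held 79.2% of the input and 96.9% of the RIP. Genes of the mitochondrial genome held 2.27% and 0.255%, and long noncoding RNAs 2.37% and 0.572%. Among the kept genes, 270 of 636 long noncoding RNAs were lower in the RIP (42.5%, against 27.7% of all genes) and 86 higher (13.5%, against 25.2%). Their median log2 ratio was -0.64. The 1020 pseudogenes stood closer to the mRNAs, at a median of -0.17. The input shares of the 5 abundant small RNAs were 4.24% in HCT116, 3.09% in DU145, and 0.520% in SW1990.

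**Figure D2:**
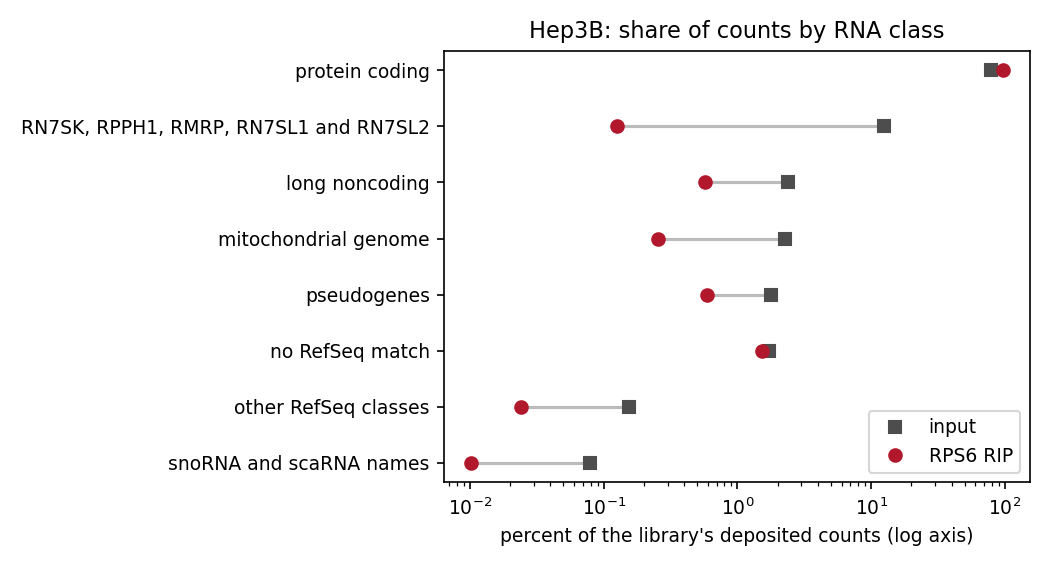
Share of the deposited counts of each Hep3B library by RNA class, in percent on a log axis, with squares for the input and circles for the RPS6 RIP. Protein-coding genes went from 79.2% to 96.9%, and each noncoding class with a RefSeq or name match held a smaller share in the RIP.

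RNAs of the nucleus and of the signal recognition particle had low ratios. RN7SK, the nuclear 7SK RNA that holds a transcription elongation factor in check, had 256001 FPKM in the input and 5304 FPKM in the RIP, a log2 ratio of -5.44 (95% interval -5.45 to -5.42). RMRP, the RNA of the RNase MRP that processes rRNA, had 221096 and 2952 FPKM and a log2 ratio of -6.21. All 15 nuclear small RNAs of the list that passed the minimum were lower, against 27.7% of all genes, with a median of -4.46. TERC, the telomerase RNA, was the least low at -1.34. No fragment of SCARNA7, a small Cajal body RNA, was found in the RIP against 2521 in the input, so it was at least 706-fold lower with the RIP set to the floor of 3 fragments in that library. SCARNA5 was at least 161-fold lower on the same basis, and SCARNA10 went from 1358.7 to 82.3 FPKM. RN7SL1 and RN7SL2 encode the RNA of the signal recognition particle, which binds ribosomes that make secreted proteins. They had log2 ratios of -8.47 and -8.68, from 206166 to 497 FPKM and from 115485 to 239 FPKM, and RN7SL4P, a copy that shares their sequence, had -8.92. The other 7 cytoplasmic small RNAs of the list, Y RNAs and vault RNAs, were listed at 0 in both libraries. Genes this short are measured on few distinct fragment positions, and 0 in the tables does not show that they were absent.

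snoRNAs guide the modification of rRNA in the nucleolus. Of 1427 genes with snoRNA or scaRNA names, 27 passed the minimum and 1273 were listed at 0 in both libraries. None of the 27 was higher and 22 were lower (81.5%, against 27.7% of all genes), with a median log2 ratio of -2.96. SNORD3A, the U3 snoRNA, had 831 and 81.7 FPKM, and SNORA40 had the highest ratio of the class at 0.23 (95% interval -1.26 to 1.76). Among the 12 snoRNAs that the study followed, 5 passed, and SNORD17 (392 and 11.1 FPKM), SCARNA13 (82.2 and 10.2 FPKM), and SNORA73B (226 and 1.89 FPKM) were each at least 2-fold lower. SNORA23 itself had 27.6 and 1.21 counts. Its log2 ratio of -3.69 rests on 1 fragment in the RIP, with an interval from -9.86 to -1.90. IPO7, the protein-coding host gene of SNORA23, had a log2 ratio of -0.41 by counts while its FPKM went from 65.5 to 90.8, and RCC1, whose locus holds SNORA73B, had 0.51. Long noncoding hosts of snoRNAs were mostly lower, in 10 of the 13 that passed and with none higher. GAS5 went from 366 to 130 FPKM, DANCR from 276 to 196 FPKM, and SNHG6 from 47.2 to 0.624 FPKM, while SNHG7 had a log2 ratio of -0.08.

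All 13 mRNAs of the mitochondrial genome were at least 2-fold lower in the RIP, against 27.7% of all genes, with a median log2 ratio of -5.19. They encode subunits of the respiratory chain. MT-CO1 (chrM:5904-7445, hg19) was the most abundant in the input at 7766 FPKM and kept 1719 FPKM in the RIP, a log2 ratio of -2.09 that was the least low of the list. MT-CO3 went from 3742 to 98.8 FPKM, and MT-ND3 from 887 to 1.66 FPKM, a log2 ratio of -9.10 with an interval from -11.24 to -8.01. The other lines had medians of -4.01, -3.95, and -6.87 in HCT116, DU145, and SW1990, also with 13 of 13 lower.

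Nuclear-retained long noncoding RNAs were lower in 7 of 9 cases by counts (77.8%, against 27.7% of all genes) and in 3 of 9 by FPKM. NEAT1, the scaffold of paraspeckles, went from 240 to 8.49 FPKM (log2 ratio -3.78), and MALAT1, an RNA of nuclear speckles, from 1076 to 320.2 FPKM (-2.66). MEG3 had 0.228 and 0.464 FPKM and a log2 ratio of 0.00. Broader groups, taken by name, had medians closer to 0. Of 360 antisense RNAs, 153 were lower by counts (42.5%, against 27.7% of all genes) and 44 higher (12.2%, against 25.2%). Their median was -0.68, and 77 were lower by FPKM. FAM211A-AS1 and FGD5-AS1, the most abundant of them, had log2 ratios of -1.66 and -1.74. USP12-AS2 lay highest at 3.50 on 1 input fragment, and TRAF3IP2-AS1, with none in the RIP, was at least 39.8-fold lower. Whether the counting used strand is not given in the sources used here, so antisense RNAs cannot be told apart from the genes they overlap. Of 127 LINC RNAs, 47 were lower (37.0%) and 18 higher (14.2%) by counts, and 19 and 7 by FPKM. Over all genes, 12.2% were lower and 21.0% higher on log2(FPKM + 1). LINC00657 and LINC00261 had -1.77 and -1.17, LINC01018 had 3.12 from 2.04 input counts, and LINC01011 was at least 16.8-fold lower.

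Among the 11531 protein-coding genes whose mean count reached 100, 3718 share their locus with none. Of the 10 highest ratios 9 were at shared loci, and of the 10 lowest 7. The highest was a second identifier of CFB, complement factor B, which had no fragment in the input and 288 counts in the RIP (at least 94.0-fold higher), while the main CFB entry had 9.77 and 38.2 FPKM. A second ITGB3 identifier (at least 78.9-fold) and the read-through genes ISY1-RAB43 (log2 ratio 5.76) and ATP5J2-PTCD1 (4.40) followed. One of the identifiers of PIK3R2 had 3.88 in Hep3B but 9.84, -4.65, and 1.17 in the other lines. Below them came FZD9, a Wnt receptor, with 0.981 and 9.42 FPKM (3.61, interval 3.27 to 4.01), and SLC39A4, a zinc transporter, with 2.46 and 24.0 FPKM. HSPG2, the basement membrane proteoglycan perlecan, had 10011 and 111640.0 counts (3.48, interval 3.45 to 3.51), or 22.6 and 267 FPKM. PKD1 (polycystin) and FLNC (filamin C) had 3.40 and 3.38. At the other end, SHFM1 had 1872 and 2.43 counts, and MRPL30, RPL36A-HNRNPH2, and a second PAGR1 identifier had less than 1 fragment in the RIP, at least 125-fold, 117-fold, and 57.1-fold lower. An identifier of FAM47E-STBD1 (-6.16) and AKAP5 (-5.21) also shared their loci.

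The same ranking was repeated, after these values were seen, for the 3718 protein-coding genes of that abundance that share their locus with none. FZD9 led, followed by INTS1, a subunit of the Integrator complex (10.0 and 89.0 FPKM, log2 ratio 3.36). FASN, the fatty acid synthase, lies at chr17:80036214-80056208 (hg19) and had 34.6 and 243 FPKM, 9.52-fold higher by counts. MED16 (Mediator), TRIM28 (a corepressor of zinc finger proteins), and FLNA (filamin A) had 3.24, 3.23, and 3.20. TRIM28 had 201 FPKM in the input and 1554.8 FPKM in the RIP, and FLNA had 25.6 and 254 FPKM. MAP3K6, COL6A2, MSLN, and PLXNA1 closed the 10 at 3.14 to 3.06. FABP1, the fatty acid binding protein of liver, lay lowest (chr2:88422510-88427635, hg19), with 66.2 FPKM in the input and 0.811 FPKM in the RIP. It was 33.5-fold lower by counts, with an interval of the log2 ratio from -5.65 to -4.60. KRCC1 (13.6 and 0.873 FPKM) and GAR1, a protein of H/ACA snoRNPs (17.3 and 0.931 FPKM), followed with -4.64 and -4.48. HRSP12, RPL36AL, SYF2, MPHOSPH6, ZNF572, C8orf4, and RPL22L1 lay between -4.47 and -3.80. FABP1 and C8orf4 were listed at 0 in the other lines. TBCA, a tubulin folding cofactor that shares its locus, had 70.3 and 3.29 FPKM.

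Of members that RefSeq does not list as coding, 5 with overlapping or unnamed loci stood highest, CTC-432M15.3 (at least 204-fold), AL645728.2 (7.92), CTD-2132N18.3 (6.59), CTD-3214H19.4 (5.65), and RP11-977G19.10 (4.35). AC034102.1, at least 125-fold lower, was among the lowest beside the small RNAs and MT-ND3 given above. MT-ND3 encodes a protein and stands here because it is among the 3241 kept genes without a RefSeq match.

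mRNAs of secreted liver proteins were more often higher than lower in the RIP. Of 37 that passed, 15 were at least 2-fold higher (40.5%, against 25.2% of all genes) and 3 were lower (8.11%, against 27.7%), with a median log2 ratio of 0.72 by counts and 0.90 by FPKM. C3, the central complement component, went from 218 to 895 FPKM (log2 ratio 2.49). FN1, fibronectin, went from 135 to 451 FPKM, VTN, vitronectin, from 166 to 589 FPKM, and APOE, an apolipoprotein, from 536 to 1795.5 FPKM, with ratios of 2.11, 2.03, and 1.79. AHSG, the fetuin-A gene, had 665 and 2001 FPKM (1.56). PLG, plasminogen, had the highest ratio, 2.95, but on 5.10 and 46.2 counts. ALB, the most abundant mRNA of the RIP by FPKM, had a ratio of 0.72 and APOB of 0.91, and neither passed 2-fold by counts. APOA2, an apolipoprotein of high density lipoprotein, was the most abundant in the input at 9041 FPKM and had 9132 FPKM in the RIP. AFP was 1.71-fold lower by counts, at a ratio of -0.78. Chains of fibrinogen did not share one value, with FGA at -0.08, FGG at -1.11, and FGB at -1.59. SERPINC1 was the member under the minimum.

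Regulators of the liver program were also on the higher side, and their medians in the other lines were positive too. Of 15 liver transcription factors that passed, 7 were higher (46.7%, against 25.2% of all genes) and 1 lower (6.67%, against 27.7%) by counts, with a median of 0.90. By FPKM, 5 were higher and 1 lower. CEBPA, a factor of hepatocyte differentiation, went from 18.1 to 87.3 FPKM (2.58), FOXA2 from 15.9 to 40.1 FPKM (1.67), and HNF4A, the main nuclear receptor of hepatocyte identity, from 53.2 to 143 FPKM (1.24). NR1H4, the bile acid receptor FXR, was the 1 lower, with 9.52 and 5.39 FPKM (-1.15). PROX1 had a count ratio of -0.91 at nearly equal FPKM, 97.7 and 99.8. NR1I2 was listed at 0. Of 20 metabolic enzymes and carriers of liver that passed, 10 were higher and 2 lower by counts, but 7 and 0 by FPKM. CYP27A1, an enzyme of bile acid synthesis, had 16.6 and 80.8 FPKM (2.17). ALDH1A1, an aldehyde dehydrogenase, was the most abundant (362 and 316 FPKM) and had -0.83. CYP2E1 had 2.04 and 60.7 counts, and SLC10A1, the bile acid carrier NTCP, had 23.5 and 3.64 counts. CYP7A1, which starts bile acid synthesis, and ABCB11 were listed at 0 in both libraries.

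**Figure D3:**
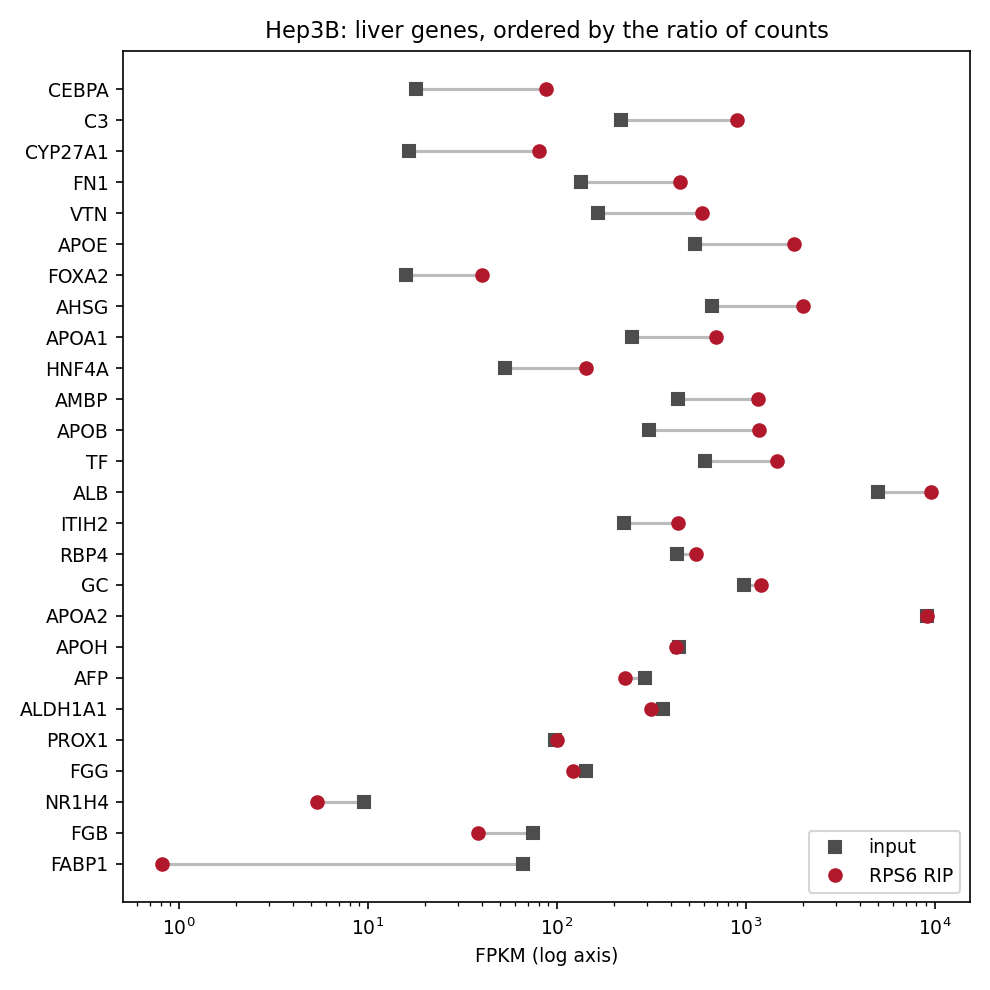
FPKM of 26 liver genes in the input (squares) and the RPS6 RIP (circles) of Hep3B cells on a log axis, ordered from the lowest (bottom) to the highest log2 ratio of counts. The genes were picked after their values were seen, and PLG is not drawn. CEBPA and C3 lie at the top with more FPKM in the RIP, ALB and APOA2 are the most abundant, and FABP1 lies at the bottom with 66.2 and 0.811 FPKM.

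Oncofetal genes split. KRT19, a keratin of biliary and progenitor cells, went from 141 to 671 FPKM (2.23), and the growth factor gene IGF2 from 1456 to 1948.5 FPKM (0.58). The noncoding H19, which lies beside IGF2 at chr11:2016406-2022700 (hg19), went from 5495.5 to 1078.0 FPKM, 6.77-fold lower by counts. LIN28B, a repressor of let-7 maturation, lay lowest at -2.83. In all, 3 of 12 were higher (25%, near the 25.2% of all genes) and 2 lower (16.7%, against 27.7%). The median of 0.03 turned to -0.05 after centring on protein-coding genes.

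Most ribosomal protein mRNAs had a lower level after the RIP. Of the 79, all of which passed, 41 were at least 2-fold lower (51.9%, against 27.7% of all genes) and 4 were higher, with a median log2 ratio of -1.20. Among these were RPS15 (948 and 1999 FPKM, 1.26), RPL8 (1.15), and RPL3 (1.15). RPS19, the most abundant of the list with 2244 and 1399.7 FPKM, had -0.74. RPL22 lay lowest, with 82.1 and 11.4 FPKM and a ratio of -3.32 (interval -3.48 to -3.17), and RPS6 had -2.03. Measured from the typical protein-coding gene of like length (the median of its length bin), the list had a median of -0.87. Copies of these genes share sequence, so fragments can be misassigned between a gene and its pseudogenes. Of 115 ribosomal protein pseudogenes that passed, 41 were lower (35.7%, against 27.7% of all genes) and 16 higher (13.9%), with a median of -0.59. RPL41P1 and RPS2P46 were the most abundant, at -1.48 and -0.24, RPLP1P11 the highest at 2.82, and RPL32P29, with no RIP fragment, at least 8.68-fold lower.

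Many mRNAs of the translation apparatus begin with a C followed by a run of pyrimidines, the 5' terminal oligopyrimidine (TOP) start, through which mTOR signaling acts on their translation. The RefSeq start of each gene (GRCh38.p14) was read on its own strand for a C at the first base within at least 5 pyrimidines in a row. This start was present at 4.04% of the 27305 promoters of the table and at 591 of 11141 protein-coding members with a window (5.30%). It was present at 43 of 63 ribosomal protein genes (68.3%). Windows of 30 bases, from 10 before the start to 20 after it, are shown 5' to 3' from RefSeq for genes of both kinds, with the run of pyrimidines in capitals and all else in lower case.
RPS6 (chr9:19380217-19380246, minus strand): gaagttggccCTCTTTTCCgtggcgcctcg
RPS27 (chr1:153990752-153990781, plus strand): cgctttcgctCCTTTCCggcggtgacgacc
RPL41 (chr12:56116623-56116652, plus strand): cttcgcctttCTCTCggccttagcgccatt
EEF1A1 (chr6:73521013-73521042, minus strand): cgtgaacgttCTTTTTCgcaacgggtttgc
EEF2 (chr19:3985444-3985473, minus strand): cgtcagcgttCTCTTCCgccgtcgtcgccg
TPT1 (chr13:45341164-45341193, minus strand): ctgagtcggcCTTTTCCgcccgctcccccc
GAPDH (chr12:6535254-6535283, plus strand): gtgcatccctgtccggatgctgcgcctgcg
ALB (chr4:73404277-73404306, plus strand): tccgtttgtcctagcttttctcttctgtca

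The start did not go with one direction in the RIP. The 43 ribosomal protein genes that had it had a median log2 ratio of -1.62, with 26 lower and 0 higher, and the 20 without it had a median of -0.69, with 7 lower and 2 higher. The 548 other genes with the start had a median of 0.06, against 0.05 for the 10550 genes without it, with 145 higher and 139 lower. Of the genes shown, RPS6 (-2.03), RPS27 (-2.20), RPL41 (-1.79), and TPT1 (-1.66) were lower, EEF1A1 had -0.08, and EEF2 was higher at 2.13, all with the run in capitals. GAPDH (1.63) and ALB (0.72) lack it. A match is a description of these letters at the annotated start, and the start used in Hep3B cells may differ.

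Translation factors had no common direction. Of 38, 8 were higher and 12 lower by counts, and 12 were higher and 5 lower by FPKM, with medians of -0.14 and 0.27. The share lower by counts, 31.6%, was near the 27.7% of all genes, and the share higher was 21.1%, against 25.2%. Over all genes, 21.0% were higher and 12.2% lower on log2(FPKM + 1). EEF2, which moves the ribosome along the mRNA, went from 472 to 2815 FPKM, while EEF1A1, which delivers aminoacyl-tRNA, stayed at 2139 and 2294 FPKM. EIF3 subunits lay on both sides, with EIF3K at 2.05 and EIF3E at -2.16. EIF5B, which joins the ribosomal subunits, was the lowest at -2.19. Of 29 genes of the signal recognition particle and the translocation channel, 14 were lower (48.3%) and 3 higher. RPN2, a subunit of the oligosaccharyltransferase, had 137 and 613 FPKM (2.05), SSR2 had 349 and 1119 FPKM (1.45), SRP9 had 558 and 232 FPKM (-1.82), and SRP19 was lowest at -3.30.

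Glycolysis mRNAs and a chosen list of very long mRNAs were at the other end. Of 15 glycolysis genes that passed, 12 were at least 2-fold higher (80.0%, against 25.2% of all genes) and none lower. Their median was 1.47 by counts and 1.56 by FPKM. ALDOA, an aldolase, went from 379 to 1836 FPKM (2.56), GAPDH from 946 to 2728 FPKM (1.63), ALDOC had the highest ratio at 2.64, and LDHA, lactate dehydrogenase A, the lowest at 0.55 (280 and 575 FPKM). All 22 very long mRNAs of the list lay above 0, and 16 were called higher (72.7%, against 25.2% of all genes), with a median of 1.77. These values do not stand for long mRNAs as a class. Of all 218 protein-coding genes of 9 kb or more in the input, 96 were higher and 26 lower, with a median of 0.84. The list also holds shorter genes, such as FLNA at 8.59 kb. Measured from the median of its length bin, the list had a median of 1.06. By counts, LRP1, a lipoprotein receptor, was highest of the list at 3.25, and FLNA had 3.20. SPTBN1, a spectrin and the most abundant of the list, had 94.2 and 198 FPKM (0.84), and AHNAK was lowest at 0.16. Of 25 collagens, laminins, and integrins, 17 were higher (68%, against 25.2% of all genes) and 1 lower (4%, against 27.7%). Their median was 1.65. LAMA5 went from 18.0 to 118 FPKM (3.30) and LAMC1 from 63.9 to 432 FPKM (1.58), whereas ITGB1, the integrin subunit most others pair with, went from 310 to 124 FPKM (-2.01). Genes of cholesterol synthesis were divided, with 10 of 23 higher (43.5%) and 3 lower (13.0%, against 27.7% of all genes), at a median of 0.64. EBP, a sterol isomerase, went from 127 to 303 FPKM (1.08), while IDI1, an isomerase of the isoprenoid steps, had -1.97.

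Several other groups were smaller in size or mixed, to be read against 25.2% of all genes higher and 27.7% lower. Immediate early genes and MYC had a median of 0.85, with 6 of 14 higher (42.9%) and 2 lower (14.3%), from JUND (88.9 and 272 FPKM, 1.93) to ZFP36, an mRNA decay factor, at -2.07, and IER3 had -0.05. Of 20 stress response genes, 6 were higher, a share near that of all genes, and 3 lower, and the median of 0.05 turned to -0.03 after centring. TRIB3 lay highest (21.5 and 113 FPKM) and HSP90B1, a chaperone of the endoplasmic reticulum, lowest (259 and 102 FPKM), with CALR at -0.06 and HSPA5 at 0.70. Of 69 histone cluster genes, 22 were higher (31.9%, near the share of all genes) and 2 lower (2.90%), with a median of 0.55. HIST2H2AC went from 643 to 1725.5 FPKM, HIST1H2AM had a ratio of 0.42, HIST2H2BB of 2.17, and HIST1H1D of -1.95.

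Splicing factors, zinc finger proteins, and mitochondrial proteins were lower more often than higher. Over all genes, 27.7% were lower and 25.2% higher by counts, and 12.2% were lower on log2(FPKM + 1). Of 25 splicing factors, 11 were lower (44%) and 2 higher (8%) by counts (median -0.88), and by FPKM 7 and 2. HNRNPA2B1 went from 811 to 189 FPKM (-2.48), HNRNPC had -0.78, SRSF5 lay lowest at -2.60, and HNRNPL was the highest at 1.47. Of 483 zinc finger genes, 238 were lower by counts (49.3%) and 94 by FPKM, with 63 and 57 higher and medians of -0.98 and -0.29. ZNF207 and ZNF444, the most abundant, had -0.39 and 1.07, ZNF628 was highest at 2.78, and ZNF438, with no RIP fragment, was at least 22.4-fold lower. Of 77 mitochondrial ribosomal proteins, which are made from nuclear genes, 30 were lower and 9 higher (39.0% lower, median -0.70), with MRPS24 at 0.68, MRPL11 at -0.43, and MRPL37 highest at 1.67. Of 77 nuclear genes named for respiratory chain subunits, 32 were lower (41.6%) and 9 higher (median -0.57). COX6A1 and ATP5D, the most abundant, had 0.30 and 1.34, NDUFB1 was lowest at -3.45, and the pseudogene ATP5A1P3 was highest at 4.06 on 2.04 input counts.

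**Figure D4:**
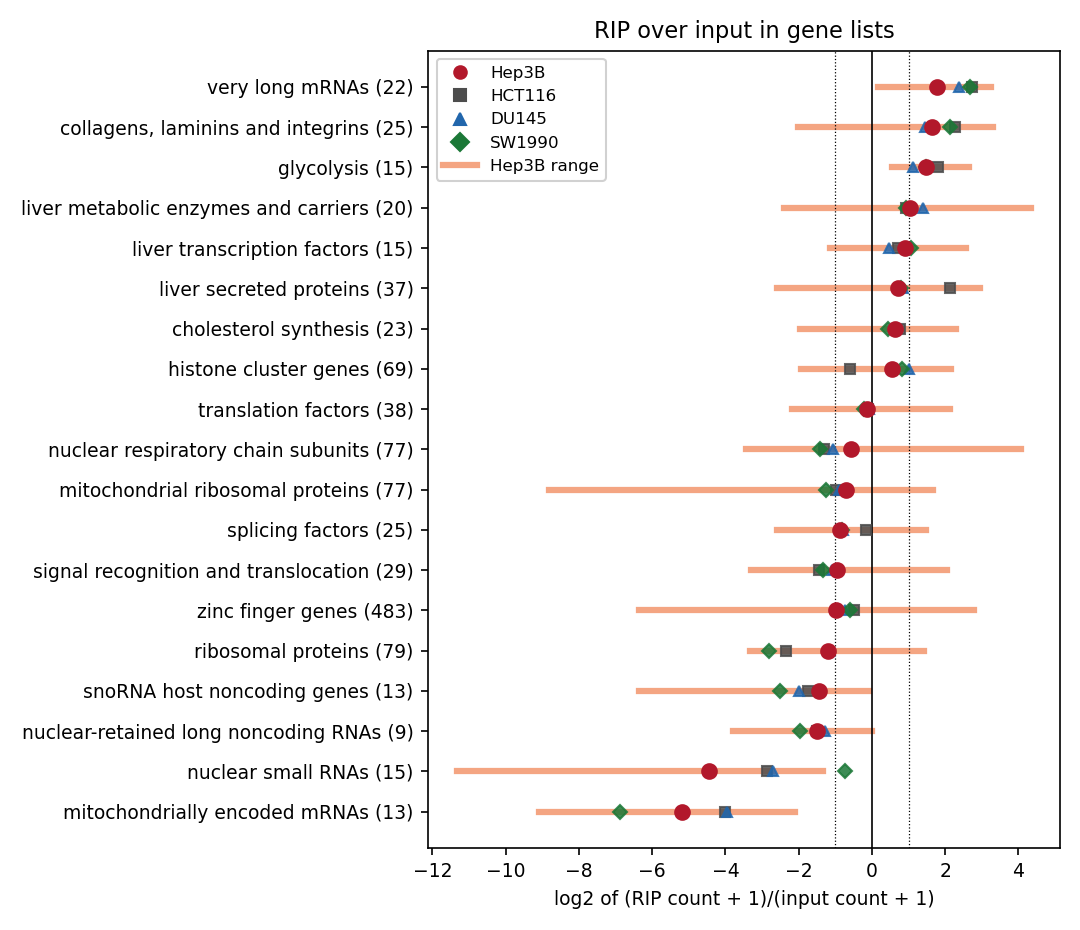
log2 of (RIP count + 1)/(input count + 1) for 19 gene lists, with the number of Hep3B members in brackets. Large circles are Hep3B medians, bars run from the lowest to the highest member in Hep3B, small symbols are the medians of the other lines, and dotted lines mark 2-fold. Medians run from 1.77 for very long mRNAs to -5.19 for mitochondrially encoded mRNAs.

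Length and base composition went with the ratio. The length of a gene was taken from its count and FPKM in the input, so it is a length implied by that library. The RIP library can imply another length. For APOB the input implied 17.3 kb and the RIP 7.30 kb. In protein-coding genes the median log2 ratio ran from -0.42 under 0.5 kb to 0.84 at 9 kb or more, and the number called higher was 46 of 309 and 96 of 218. Single genes spread widely around this, with quartiles of -0.82 and 1.14 between 3 and 4 kb. By FPKM the medians ran from -0.59 to 0.71. The Spearman correlation of length with the ratio across 13528 genes was 0.16 in Hep3B, against 0.28 in HCT116, 0.24 in DU145, and 0.31 in SW1990. Genes are not independent replicates, both values share the input count, and these correlations only describe the libraries. The G+C content of the RefSeq window from 250 bases before the start to 50 after it also went with the ratio. The genes were divided into 5 groups by G+C. In the group with the least (up to 56.3%) the median was -0.28, and in the group with the most (73.7% or more) it was 0.65, with 39.9% of genes higher and 14.2% lower. After the median of the length bin was taken off, the medians of these groups were -0.34 and 0.49, so the order by G+C was also present among genes of like length. By FPKM the medians were 0.10 and 0.65. The correlation across 11141 genes was 0.19 in Hep3B and between 0.16 and 0.21 in the other lines.

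**Figure D5:**
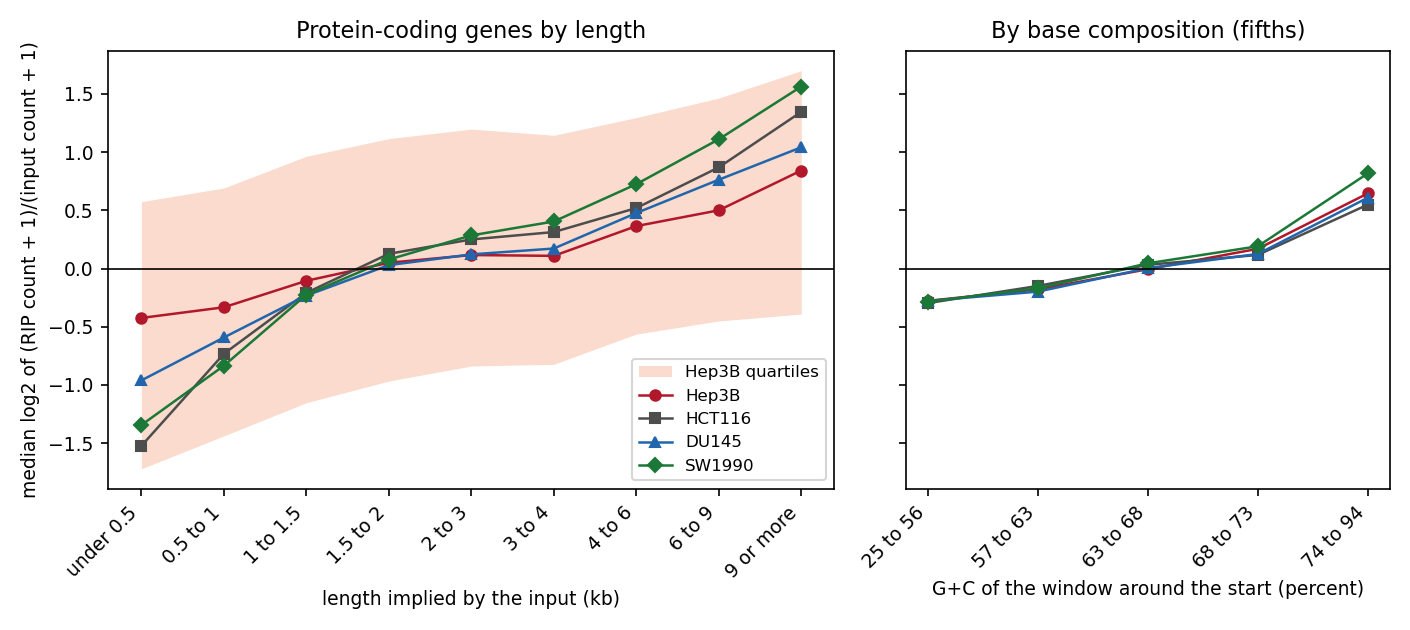
Median log2 ratio of RIP to input of protein-coding genes in each cell line, by the length implied by the Hep3B input (left, kb) and by 5 groups of G+C content of the window around the RefSeq start (right, percent). The shaded band runs between the quartiles of Hep3B genes. In Hep3B the medians run from -0.42 to 0.84 with length and from -0.28 to 0.65 with G+C.

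The other lines served to ask what was particular to Hep3B. Each line has its own input, so the pairs share no library. Of 14432 genes that passed the minimum in all 4 lines, 3749 were higher in Hep3B, and 2222 of these (59.3%) were higher in all 4. For the lower genes the numbers were 1994 of 3582 (55.7%). In pairwise view, 69.8% to 74.8% of the genes called higher in Hep3B were also higher in a given other line, which is 67.4% to 73.1% of the genes called higher there. Of all genes compared with Hep3B, 4193 of 15454 were higher in HCT116, 4121 of 16196 in DU145, and 4412 of 15741 in SW1990. Genes at least 2-fold higher in Hep3B and at or below 0 in each of the other lines numbered 46, and the reverse pattern was found for 82. The list medians of Hep3B lay within or near those of the other lines for glycolysis (1.11 to 1.79 elsewhere), translation factors (-0.21 to -0.09), and histone cluster genes (0.55, against -0.61 to 1.0). They lay apart for nuclear small RNAs (-4.46, against -2.86, -2.71, and -0.74). For very long mRNAs the median of 1.77 compares with 2.38 to 2.72. Liver transcription factors had 0.90, against 0.72, 0.46, and 1.06 in HCT116, DU145, and SW1990. Liver metabolic enzymes and carriers had 1.04, against 0.94, 1.39, and 0.92 in the same order. Secreted liver proteins had 0.72, against 2.14, 0.86, and 0.80, with 37 genes passing in Hep3B and 21, 15, and 13 there. Ribosomal proteins had -1.17 in DU145, close to Hep3B, but -2.34 in HCT116 and -2.80 in SW1990.

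Whether the RIP ratio of Hep3B differed from that of the other lines was tested for each gene with edgeR's quasi-likelihood test, 1 pair against 3, with the cell line as a block. The single Hep3B pair was taken to vary like the others, with 2 residual degrees of freedom. Of 19910 genes tested, 0 (0%) passed a Benjamini-Hochberg adjusted p of 0.05, and the smallest adjusted p was 0.148. With 1 pair on one side, this does not show that the ratios were alike. At an unadjusted p under 0.05 there were 1634 genes (8.21%). Under limma on FPKM ratios the count was also 0, whereas DESeq2 called 33 genes higher and 51 lower in Hep3B. Of these 84, 64 share their locus with another gene, as do 69.2% of all kept genes. Since the tools differed, no gene is called particular to Hep3B, and no list was tested. Values of 3 genes that DESeq2 called and that share their locus with none, chosen after they were seen, show the size of the differences. SRM, the spermidine synthase, had a log2 ratio of 1.18 in Hep3B and of -0.24, -0.06, and -0.16 in HCT116, DU145, and SW1990 (edgeR adjusted p = 0.535, DESeq2 adjusted p = 0.00881). GAR1 had -4.48, against -1.49, -1.58, and -1.90 (edgeR adjusted p = 0.324, DESeq2 adjusted p = 0.000490). H19 had -2.76, against -0.40, -1.34, and -0.57 (edgeR adjusted p = 0.542, DESeq2 adjusted p = 0.0160).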

How the data were processed

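Per the labels and the methods, RIP and input RNA of Hep3B, HCT116, DU145, and SW1990 cells were made into libraries with a stranded total RNA kit, and the submitters' processing notes name CASAVA 1.8, TopHat2 2.0.9, and hg19. The tool that counted fragments, its annotation, and its use of strand are not given in the sources used here. The authors deposited FPKM values, normalized for length and depth, and estimated counts, scaled by 1 factor per library. Their files of fold changes with p-values for 1 library against 1 were not used.

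Fragments were recovered by dividing counts by the common step of each library. Within a tolerance of 0.01, wider for large counts, 93.7% and 94.0% of the Hep3B values above 0 came out whole, and the rest were rounded. Depth was 34630349 to 54209614 fragments per library. The design had been set for counts, and the estimated counts were rounded for edgeR 4.0.16 (R 4.3.3, TMM, mean of at least 10 counts over 8 libraries, cell line as block). limma 3.58.1 and DESeq2 1.42.0 were alternatives. Ratios and intervals were computed in Python 3.11.15 (pandas 2.3.3 with NumPy 2.4.6, SciPy 1.17.1) and drawn with matplotlib 3.10.9, and scripts were tested on simulated data. RNA classes came from RefSeq symbols (GRCh38.p14, names and start sequences only), which left 3241 of the 18533 genes unmatched.

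The members, gene lists, and alternatives were chosen with earlier results of these data known. No gene passed the threshold against the other lines, so none was named for it. Genes named are the 10 highest and 10 lowest coding and the 5 highest and 5 lowest other members with a mean of at least 100 counts, in each list the 2 with the highest mean FPKM and the highest and lowest ratio, and RPS6, ALB, AFP, APOB, SNORA23, SNORA73B, IPO7, and RCC1. Some genes that this rule names are not reported here. Others in the text were chosen after their values were seen. Gene sets were described by counts and medians, with no test.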

Additional observations from a re-analysis of the deposited data

How the results depend on the processing

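The 4671 higher and 5131 lower genes in the Hep3B RIP kept to within 1.5 times under pseudocounts of 0.5 and 5, log2(FPKM + 0.1), centring, TMM factors, a mean of at least 50 counts, and a 1.5-fold limit. On log2(FPKM + 1) the lower genes were 2265, and the cause was not tested. With no minimum on counts, 12712 of 30815 genes were lower (41.3%, against 27.7% with the minimum). At 4-fold, 1532 were higher and 2266 lower. Settings added after the values were seen took fewer genes: those that share their locus with none (1601 higher, 1547 lower of 5702) and coding genes whose mean count reached 100 (2518 lower of 11531). For Hep3B against the other lines, edgeR's 0 calls stayed at 0 without added factors, with the minimum in every pair, and on recovered fragments, as with limma. DESeq2 called 33 higher and 51 lower, and edgeR without a minimum 35 and 74. Leaving out 1 pair gave 0 to 5 higher and 0 to 20 lower genes, with 0 and 0 without HCT116, 3 and 9 without DU145, and 5 and 20 without SW1990. The cause of these differences was not tested. RIP and input of a line were paired by the cell line block in each of these edgeR fits. A single pair per line limits every value to these libraries, and genes at a few fragments have wide intervals.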
